A study of Mus musculus with 10 samples.

Results

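The collagen genes of the mouse genome, here every gene whose symbol is Col, a number, the letter a and a number, were followed through single-cell RNA counts from the pituitary of CD1 mice. The rule found 44 genes among the 44288 gene symbols of the series, and all 44 were listed on both platforms. Their 26063 UMIs (unique molecular identifiers, 1 for each captured molecule) were part of 27438118 UMIs in 23432 kept cells, and 41 members had at least 20 UMIs. The other members were Col6a5 (19 UMIs), Col22a1 (17) and Col10a1 (1). The 10 libraries were made with the 10X Genomics platform from WT 8-week females (n = 1) and WT 8-week males (n = 1), and by Drop-seq from WT 8-week females (n = 2), WT 8-week males (n = 2), 8-week females with the mt/hGRF transgene (n = 1), WT 13-week virgin females (n = 1) and WT 13-week lactating females (n = 2). The mt/hGRF transgene places human growth hormone-releasing factor under a metallothionein promoter, which is active in many tissues. Per the study's text the WT 8-week Drop-seq libraries, the mt/hGRF library and the second lactating library each pooled more than 1 mouse, and pituitaries were dispersed in a buffer without enzyme and passed through a strainer. A library is the unit of all tests, and p-values measure the spread between libraries.

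Collagens are proteins of the extracellular matrix in which 3 chains wind into a triple helix. Fibrillar collagens (types I, II, III, V, XI, XXIV and XXVII) form fibres, type IV forms the sheet of basement membranes, type VI forms beaded filaments, FACIT collagens sit on the surface of fibres, multiplexins lie in basement membrane zones, and a further group spans the cell membrane. In most tissues fibroblasts and pericytes make the fibres, and endothelial and epithelial cells also make basement membrane. In the pituitary, hormone cells lie in cords between capillaries, with folliculostellate (Sox2) cells among them and pituicytes, the glia of the posterior lobe, behind them.

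Classes were gated on markers that are not collagens, with at least 2 marker UMIs per cell. Stroma was gated by Dcn, Lum, Ogn, Pdgfrb and Itih5, and held 217 cells, 0.926% of all kept cells, with 10 to 28 per library. Marker genes summed to between 57.4 and 137.0 UMIs per 10000 in the stroma of the 10 libraries. No library exceeded 0.857 in the hormone, Sox2, macrophage and red blood cell classes, a contrast that the gate itself sets. Tied cells reached 3.234, in 7 cells of the mt/hGRF library. Endothelial cells reached 11.97, in 4 cells of the 10X male, and pituicytes 4.074, in 6 cells of lactating replicate 1. Pituicytes (Rax, Scn7a, Nkx2-1) held 48 cells and endothelial cells 52. The other classes were macrophages, Sox2 cells and the gated hormone cells, namely gonadotropes (Gona), melanotropes (Mel), corticotropes (Cort), lactotropes (Lac) and somatotropes (Som). No gate was met by 15188 cells, 64.8% of all.

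Sequence upstream of 3 members is shown because each stands for a different distribution described below. Col3a1 had over 50% of its UMIs in stroma, Col27a1 had 0.653% of its UMIs in stroma and was high in the mt/hGRF library, and Col25a1 had its highest level in pituicytes. Each run is 250 bases before the RefSeq start on GRCm38.p6, on the plus strand, and overlaps no annotated exon. The Col27a1 and Col25a1 windows lie inside the annotated gene but in none of its exons. Capitals mark 3 motifs on either strand, which lie apart in these windows. They are the CCAAT box, the GC box GGGCGG and the TATA box TATAAA. Of 32851 promoters listed by RefSeq, 33.8% held the CCAAT box in the same window, 32.7% the GC box and 12.4% the TATA box, and 35 of the 44 members had a promoter entry.
Col3a1, chr1:45311288-45311537: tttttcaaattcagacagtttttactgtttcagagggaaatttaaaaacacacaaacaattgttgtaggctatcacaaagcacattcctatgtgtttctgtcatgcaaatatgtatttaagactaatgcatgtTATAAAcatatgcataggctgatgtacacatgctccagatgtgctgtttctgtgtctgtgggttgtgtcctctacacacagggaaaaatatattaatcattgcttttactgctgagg
Col27a1, chr4:63215162-63215411: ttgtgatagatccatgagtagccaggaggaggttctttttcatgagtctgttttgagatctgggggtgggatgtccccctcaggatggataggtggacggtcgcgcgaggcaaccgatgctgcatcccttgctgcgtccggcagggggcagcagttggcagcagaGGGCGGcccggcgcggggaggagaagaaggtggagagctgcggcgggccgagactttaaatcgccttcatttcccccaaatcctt
Col25a1, chr3:130180595-130180844: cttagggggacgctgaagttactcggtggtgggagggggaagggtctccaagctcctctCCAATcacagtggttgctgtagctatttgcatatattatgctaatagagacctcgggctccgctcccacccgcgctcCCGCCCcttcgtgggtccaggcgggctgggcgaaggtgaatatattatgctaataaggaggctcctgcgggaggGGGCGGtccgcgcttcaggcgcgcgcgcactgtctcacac
The Col3a1 window held 1 TATA box and 35.2% G and C, the Col27a1 window 1 GC box and 59.6%, and the Col25a1 window 1 CCAAT box, 2 GC boxes and 60.4%. These matches describe the letters only, since no binding was measured.

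Collagen UMIs were unevenly shared among the roles. The 11 fibrillar members held 21334 UMIs, 81.9% of the total, and 11828 of these were Col1a2. The 6 basement membrane members held 1475 UMIs, the 9 FACIT members 1348, the 4 transmembrane members 767, the 6 beaded filament members 428, the 2 multiplexins 254, anchoring Col7a1 247, the 3 network members 133, and Col26a1 and Col28a1 together 77. Class levels were pooled over all libraries. Summed over all members, collagen reached 82.1 UMIs per 10000 in stroma, 32.1 in pituicytes, 19.97 in endothelial cells and 11.6 in Lac. It lay between 4.70 and 7.57 in Sox2 cells, Cort, Mel, Som and Gona, at 3.30 in macrophages and at 2.42 in red blood cells. Stroma thus had the highest level per UMI, yet its few cells held 7.08% of collagen UMIs and the cells without a gate held 56.8%. Over all kept cells the summed level was 4.03 and 2.14 per 10000 in the 10X female and male. It was 7.68 to 17.4 in the 8 Drop-seq libraries, and the highest value, 17.4, was that of the mt/hGRF library. Tests therefore compare platforms only within themselves or with a term for the library. The class levels above mix both platforms, in parts that differ by class. The 10X male alone held 749871 of the 1779245 UMIs of Sox2 cells, but 26174 of the 224551 UMIs of stroma. The order of the classes below stroma was not tested within a platform.

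**Figure D1:**
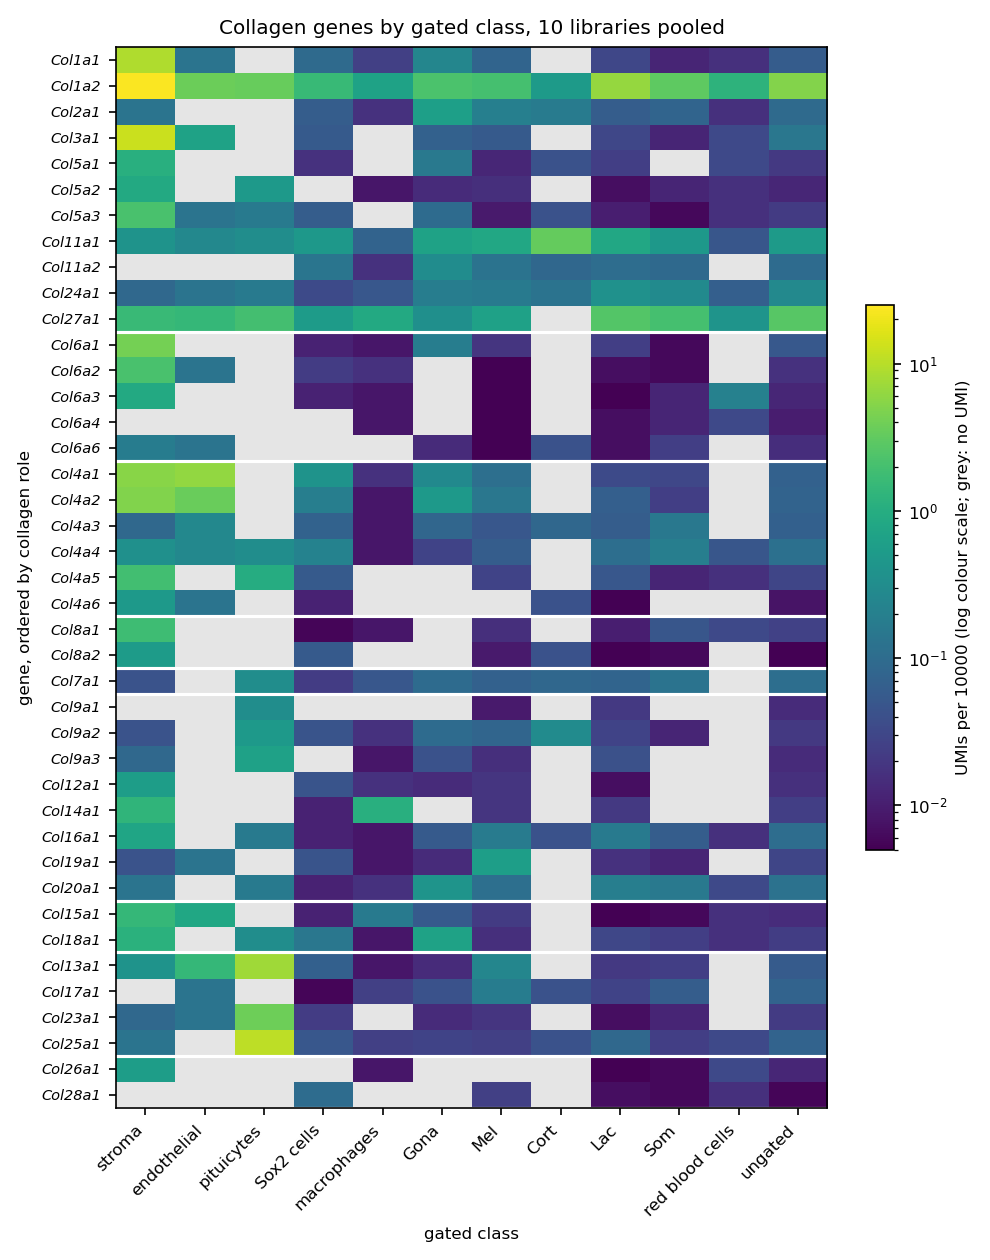
UMIs per 10000 of 41 collagen genes (rows, by role) in 12 cell classes (columns), pooled over the 10 libraries, on a log colour scale. Yellow is high and grey is no UMI. Most fibrillar, beaded filament and basement membrane rows are brightest in stroma, Col25a1, Col13a1 and Col23a1 are brightest in pituicytes, Col4a1 reaches 6.26 in endothelial cells, Col1a2 is seen in all hormone classes, and Col27a1 in all but Cort, where it had no UMI.

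Stroma was first compared with all other kept cells of the same libraries, to ask which collagen genes it held above the rest of the pituitary. Col1a1, Col1a2, Col3a1, Col5a3, Col6a1, Col6a2, Col4a1 and Col4a2 were each above the other cells in all 10 libraries. Col3a1, the chain of type III fibres, lay between 6.66 and 18.9 UMIs per 10000 in stroma (median 11.6) and between 0.0105 and 0.595 in all other cells (median 0.0429). Col1a1, the main chain of type I fibres, lay between 1.93 and 14.5 (median 7.14), against 0.008 to 0.305. Neither range overlapped that of the other cells. In edgeR's quasi-likelihood test on summed UMIs, with the library as a block, Col3a1 was higher by 6.79 on the log2 scale (SE 0.43, adjusted p = 1.17e-54) and Col1a1 by 6.31 (SE 0.40, adjusted p = 1.97e-53). Col5a3, a chain that joins type I fibres, was at 0.427 to 4.95 per 10000 in stroma and at 0.00257 to 0.0568 elsewhere, a log2 difference of 5.88 (SE 0.40). Col1a2, the partner of Col1a1 in type I collagen, stood apart from these members, since it was plentiful elsewhere. It lay between 10.3 and 38.4 in stroma and between 0.447 and 9.66 in the other cells, a log2 difference of 2.24 (SE 0.37, adjusted p = 7.14e-08). The 2 ranges did not overlap for Col1a2 either, but the gap between them was narrow.

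Beaded filament and basement membrane chains were raised in the same cells. Col6a1 lay between 2.64 and 6.26 per 10000 in stroma (log2 difference 5.87, SE 0.37) and Col6a2 between 0.754 and 4.98 (6.47, SE 0.41). Col4a1 and Col4a2, the chains found in nearly all basement membranes, lay between 3.26 and 10.6 and between 0.951 and 7.54, against at most 0.227 and 0.265 in the other cells. Their log2 differences were 4.84 (SE 0.35) and 4.75 (SE 0.36), smaller than those of types I (Col1a1), III and VI. Endothelial and Sox2 cells were among the cells compared with, and their part in this was not tested.

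**Figure D2:**
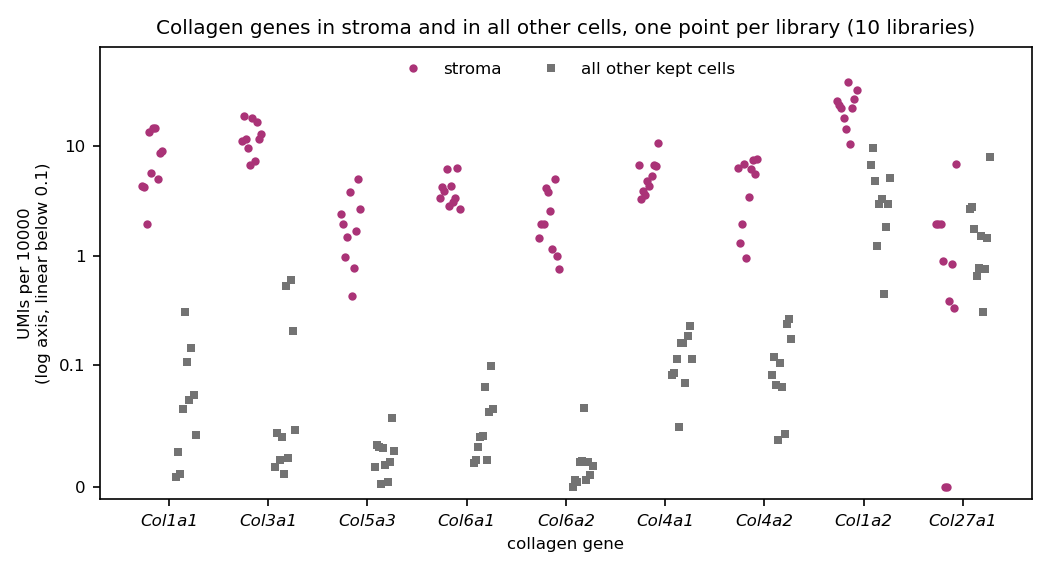
UMIs per 10000 of 9 collagen genes in stroma and in all other kept cells, 1 point for each of the 10 libraries and class, on an axis that is linear near 0 and logarithmic above. For Col3a1, Col1a1, Col1a2, Col5a3, Col6a1, Col6a2, Col4a1 and Col4a2 all 10 stroma values lie above the value of the same library's other cells, while Col27a1 is above in 4 of 10 libraries.

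In that test 10 members passed the filter on low counts, of which 8 were higher, where 3.4% of all 5819 genes tested were called higher, and 1, Col27a1, was lower (log2 difference −1.12, SE 0.41, adjusted p = 0.0345), where 20.3% of all genes were called lower. The filter passes a rare gene mainly through the group where it is high, so all 44 members were also fitted with no filter, where 22 were higher against 2.85% of 23869 genes and 5 were lower against 18.4%. The members added by that fit included Col8a1 and Col8a2, the chains of a short network collagen (log2 4.99 and 4.59), Col5a1 and Col5a2 (4.13 and 4.84), Col6a3 (4.61), Col4a5 and Col4a6 (4.58 and 4.80), the multiplexins Col15a1 and Col18a1 (4.54 and 3.31) and the FACIT members Col12a1, Col14a1 and Col16a1 (3.66, 3.05 and 1.61). These are the rarer members, and Col15a1, for instance, lay between 0 and 3.36 per 10000 in stroma, with a UMI in 8 of 10 libraries. The 5 lower ones were Col27a1, Col11a1, Col24a1, Col11a2 and Col17a1, and the last 2 had no UMI in stroma. The median log2 difference of all genes tested was −0.67 with TMM scaling and −0.04 when total UMIs were used as library sizes. On total UMIs 335 genes were called higher and 179 lower, in place of 198 and 1180. The 8 higher members were also called there, with larger differences (2.94 to 7.44), and Col27a1 was not (−0.53, adjusted p = 0.502).

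Within stroma the members varied from cell to cell and between libraries. Of stroma cells, 85.92% ± 10.31 (SD, n = 10) had at least 1 collagen UMI. Since this share depends on depth, each cell was also thinned to 300 UMIs, where it was 74.0% ± 9.65, while red blood cells, which should lack collagen, had between 0% and 22.2%. Macrophages had between 1.89% and 20.9%. That share mixes members, with 128 UMIs of Col14a1, 105 of Col27a1 and 81 of Col1a2, and is not taken as a background value. Median UMIs per cell were 479.5 to 974 in the stroma of the 10 libraries and 680 to 1781 in macrophages. Stroma cells of the 13-week virgin library had the lowest share without thinning, 70% of 20 cells. Col1a1 in stroma was 13.3 and 14.5 per 10000 in the 10X female and male. By Drop-seq it was 5.71 and 14.5 in the 8-week females, 4.98 and 8.57 in the 8-week males, 9.05 in mt/hGRF, 1.93 in the virgin and 4.33 and 4.24 in the lactating females. The 3 libraries of 13-week mice thus had the lowest Col1a1 values, each resting on 2 to 13 UMIs, and age and batch cannot be told apart here. In no class can fewer cells of a type be told apart from less RNA per cell in the pooled values over all kept cells.

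Stroma cells with Dcn, Lum or Ogn were set beside those gated by Pdgfrb or Itih5 alone, in 3 libraries with at least 5 cells of each. Only 41 genes passed the filter, 2 of them members, and edgeR called neither, while 1 had an unadjusted p under 0.05 and DESeq2 called 1. Of the 41 genes edgeR called 2.44% and DESeq2 4.88%. Col1a2 had a log2 difference of 2.19 (SE 0.81, adjusted p = 0.14) and Col3a1 of 0.90 (SE 0.60, adjusted p = 0.503), with the higher level in the cells with Dcn, Lum or Ogn. Itih5 was in 16 of 24, 9 of 16 and 23 of 28 stroma cells of these libraries, with both arms counted. Each arm held 5 to 23 cells per library.

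Genes that make, anchor or cut collagen were counted in the same stroma test from lists by role. Of the 19 genes of collagen making and cross-linking, 12 passed the filter and 4 were higher, where 3.4% of all genes were, and none was lower. These were Pcolce, which helps cleave procollagen (log2 5.22, SE 0.36), Sparc, a collagen-binding protein (3.22, SE 0.37), Serpinh1, the collagen chaperone HSP47 (2.77, SE 0.34), and Loxl1, a cross-linking oxidase (2.68, SE 0.40). The other 8, among them the hydroxylases P4ha1, P4ha2, Plod2, Plod3 and P3h1, had differences between −0.90 and 0.26 and were not called. The other lists had few genes past the filter, which favours genes high in stroma, so they are counted with no filter, where 2.85% of all genes were higher and 18.4% lower. Of 11 basement membrane partners 8 were higher and none lower, among them the linker protein Nid1 (5.63, SE 0.38) and the laminin chains Lama2 (5.93, SE 0.37) and Lamb1 (3.42, SE 0.35), while Nid2 was called with the filter (1.55) and not without it (1.02, adjusted p = 0.0788). Of 8 matrix turnover genes 4 were higher and none lower, namely the proteases Mmp2 (6.097, SE 0.40) and Mmp14 (2.58, SE 0.34) and the inhibitors Timp3 (3.28, SE 0.38) and Timp2 (1.11, SE 0.34). Of 7 collagen receptors 3 were higher, Ddr2 (4.23, SE 0.51), Itga11 (2.39, SE 0.90) and Itga1 (1.68, SE 0.63), and none was lower. Collagen making then had 7 of 19 higher, with Lox (4.04), Loxl2 (4.901) and Adamts2 (3.45) added, and 1 lower, P4ha2 (−1.396). In this fit the list medians were 0.66 for collagen making, 3.04 for basement membrane partners, 1.2 for turnover and 0.27 for receptors, beside −1.37 for all genes.

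Pituicytes had a different set of members from stroma. They were too few for the planned minimum of 10 cells in 3 libraries, so pooled values are given first. Col25a1, a membrane-spanning collagen of neurons and glia, had 64 UMIs in 30 of 48 cells, 10.6 per 10000 with an exact 95% Poisson interval of 8.12 to 13.5. It was counted in the pituicytes of all 9 libraries that held any, at between 4.75 and 33.6 per 10000. Those libraries held 1 to 17 pituicytes each, and the Poisson intervals cover counting error only, not the spread between libraries. Col13a1 had 45 UMIs in 22 cells of 7 libraries (7.42 per 10000, 5.41 to 9.93) and Col23a1 had 23 UMIs in 15 cells of 8 libraries (3.79, 2.40 to 5.69). All 3 are transmembrane collagens, and outside pituicytes the highest pooled values of Col25a1 and Col23a1 in a named class were 0.134 and 0.133 per 10000. That of Col13a1 was higher, at 1.465 in endothelial cells. Col17a1, the remaining transmembrane member, had no UMI in pituicytes, which allows up to 0.608 per 10000 at 95%. Neither Col1a1 nor Col3a1 had a UMI there. With a minimum of 5 cells, chosen after the data were seen, 4 libraries could be fitted. Col23a1 (log2 6.08, SE 0.79), Col25a1 (6.01, SE 0.64) and Col13a1 (5.25, SE 0.59) were called higher, 3 of 11 members tested where 0.681% of all genes were called higher. Col1a2 was called lower (−2.17, adjusted p = 0.0352), where 2.46% of genes were, and this call was lost on total UMIs (−0.75, adjusted p = 0.786). The higher calls were kept on total UMIs, where 99 genes were called higher and 17 lower in place of 57 and 206.

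Endothelial cells carried type IV collagen. Col4a1 had 47 UMIs in 20 of 52 cells from 8 of 9 libraries, 6.26 per 10000 (exact Poisson interval 4.60 to 8.32), and Col4a2 had 27 UMIs, 3.60 (2.37 to 5.23). Col13a1 followed with 11 UMIs and Col15a1 with 6, and Col18a1 had none, which allows up to 0.491 per 10000. The intervals cover counting error only. Stroma markers summed to between 0 and 11.97 per 10000 in the endothelial cells of the 9 libraries, and Col3a1 had 5 UMIs there. The part of stroma RNA in the type IV values was not tested. In the 7 libraries with at least 5 endothelial cells, Col4a1 was higher than in the other cells by 4.12 on the log2 scale (SE 0.40), 1 of 4 members tested where 0.62% of all genes were called higher. The other 3, Col1a2, Col11a1 and Col27a1, were called lower where 18.4% of genes were, and none of these was called on total UMIs, where 88 genes were called higher and 15 lower in place of 33 and 978.

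Single members were higher in other classes than in the cells compared with. Col14a1, a FACIT collagen, was higher in macrophages, where it lay between 0.33 and 2.99 UMIs per 10000 (median 0.912) against 0.0042 to 0.066 in the other cells, above in 10 of 10 libraries (log2 5.04, SE 0.32, adjusted p = 3.22e-16). It was the 1 member of 4 tested that was higher, a count near the 28% of all genes called higher. Col14a1 was not particular to macrophages, since its pooled level was 1.336 per 10000 in stroma and 1.074 in macrophages. The stroma markers reached at most 0.401 per 10000 in macrophages, and Col3a1 had no UMI there. Col11a1 (log2 −3.15), Col1a2 (−3.39) and Col27a1 (−1.15) were lower, where 36.9% of all genes were. With no filter Col15a1 was also higher (1.92, SE 0.46), making 2 of 44 members, against 8.89% of all genes, and 26 members were lower, against 29.4%. In melanotropes, Col19a1, another FACIT collagen, lay between 0.111 and 1.32 per 10000 and above the other cells in 10 of 10 libraries (log2 4.502, SE 0.29, adjusted p = 9.34e-11). Col2a1, the chain of cartilage fibres, had a log2 difference of 1.16 (SE 0.37, adjusted p = 0.0315), which was 0.92 with DESeq2 (adjusted p = 0.104) 0.79 and 0.88 without lactating replicate 1 or 2 (adjusted p = 0.139 and 0.131) and 1.12 without the virgin library (adjusted p = 0.064), and was above in 6 of 10 libraries. Col11a1 was higher there by 0.69 (SE 0.19, adjusted p = 0.0121) and on total UMIs by 0.53 (adjusted p = 0.0725). These were 3 of 7 members tested, where 8.73% of genes were called higher. Col1a2 and Col27a1 were lower (−1.19 and −1.46), where 10.7% of genes were. On total UMIs 408 genes were called higher and 1160 lower in place of 688 and 841. With no filter 12 members were lower, against 9.93% of genes, and 7 were higher, against 3.47%, among them the membrane-spanning Col17a1 (2.01, SE 0.30) and Col13a1 (1.70, SE 0.26), each with a UMI in the melanotropes of all 10 libraries.

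In gonadotropes Col2a1 lay between 0.148 and 5.65 UMIs per 10000 (median 0.745) and was above the other cells in 10 of 10 libraries (log2 2.27, SE 0.34, adjusted p = 1.58e-09), the 1 higher member of 5 tested where 2.43% of genes were called higher. Its UMIs per library were few, from 1 to 11. With no filter Col18a1, the multiplexin that yields endostatin, was higher by 3.12 (SE 0.33), as were Col5a1 (1.85, SE 0.51) and Col4a2 (1.05, SE 0.35), so that 4 of 44 members were higher against 1.49% of genes, and 10 were lower against 8.18%. Col27a1 (−2.22, SE 0.33) and Col1a2 (−0.88, SE 0.25) were lower, where 9.24% of genes were, and Col1a2 was not called on total UMIs (−0.41, adjusted p = 0.315), where 343 genes were higher and 280 lower in place of 163 and 621, nor without the virgin library (−0.73, adjusted p = 0.0633). The median of all genes in gonadotropes was −0.23 with TMM. Col1a2 in gonadotropes was 15.9 per 10000 in Drop-seq 8-week female replicate 2, from 40 UMIs in 2 of 21 cells, and 0.499 to 8.94 in the other libraries. Corticotropes could be tested in 3 libraries. Col11a1, a minor fibrillar chain known from cartilage, was at 1.29, 2.09 and 7.64 per 10000 there against 0.607 to 1.18 in the other cells (log2 1.36, SE 0.44, adjusted p = 0.0291), the 1 higher member of 5 where 2.75% of genes were. The highest value came from Drop-seq 8-week female replicate 2, and without that library the difference was 0.69 (adjusted p = 0.653), and without the virgin library it was 1.41 (adjusted p = 0.373). DESeq2 gave 1.26 (adjusted p = 0.163). Col27a1 had 0 of 127339 UMIs in these corticotropes, at least 9.64-fold lower than in the other cells of those libraries with a floor of 3 counts over the group, and Col1a2 was lower, with a log2 difference of −3.498 (SE 0.51), the 2 lower members where 5.69% of genes were. On total UMIs 703 genes were higher and 237 lower in corticotropes, in place of 232 and 480.

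Sox2 cells, the folliculostellate and progenitor class, were higher for 2 members of 7 tested, where 14.7% of genes were called higher. Col4a1 lay between 0.105 and 1.63 UMIs per 10000 (log2 1.65, SE 0.32, adjusted p = 2.66e-05) and Col4a4 between 0.0133 and 0.906 (1.38, SE 0.37, adjusted p = 0.00249). With no filter 5 members were higher, against 5.32% of genes, with Col28a1 at 3.10 (SE 0.63) and Col8a2 at 2.53 (SE 0.69), and 10 were lower, against 13.2%. Col1a2 and Col27a1 were lower (−1.07 and −1.83), where 19% of genes were. The same lists, with no filter, went both ways in Sox2 cells. Of 11 basement membrane partners 5 were higher, among them Lamb2 (3.39), Nid2 (3.03) and the epithelial laminin chain Lama5 (2.64), and 3 were lower, Lama1 (−2.97), Lamb1 (−2.45) and Nid1 (−1.75). Of 19 genes of collagen making 3 were higher, P4ha3 (3.85), P4ha1 (1.08) and Ppib (0.79), and 5 lower, among them Lox (−2.82), P4ha2 (−1.896) and Sparc (−1.84). Of 7 collagen receptors Itgb1 was higher (0.63) and none lower, and of 8 turnover genes 3 were higher and Mmp2 was lower (−5.57). Serpinh1 and Ddr1 were called with the filter (0.82 and 0.86) and not without it (adjusted p = 0.108 and 0.107). In macrophages 3 of 10 tested genes of collagen making were higher and 4 lower, shares near the 28% and 36.9% of all genes. Sparc had the highest difference of the 10 (4.58) and Plod2, a lysyl hydroxylase, the lowest (−5.06). With no filter, where 8.89% of all genes were higher and 29.4% lower, the 19 genes had 5 higher and 8 lower, the 11 basement membrane partners 0 and 6 by edgeR, the 7 receptors 0 and 4, and the 8 turnover genes 4 and 2.

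**Figure D3:**
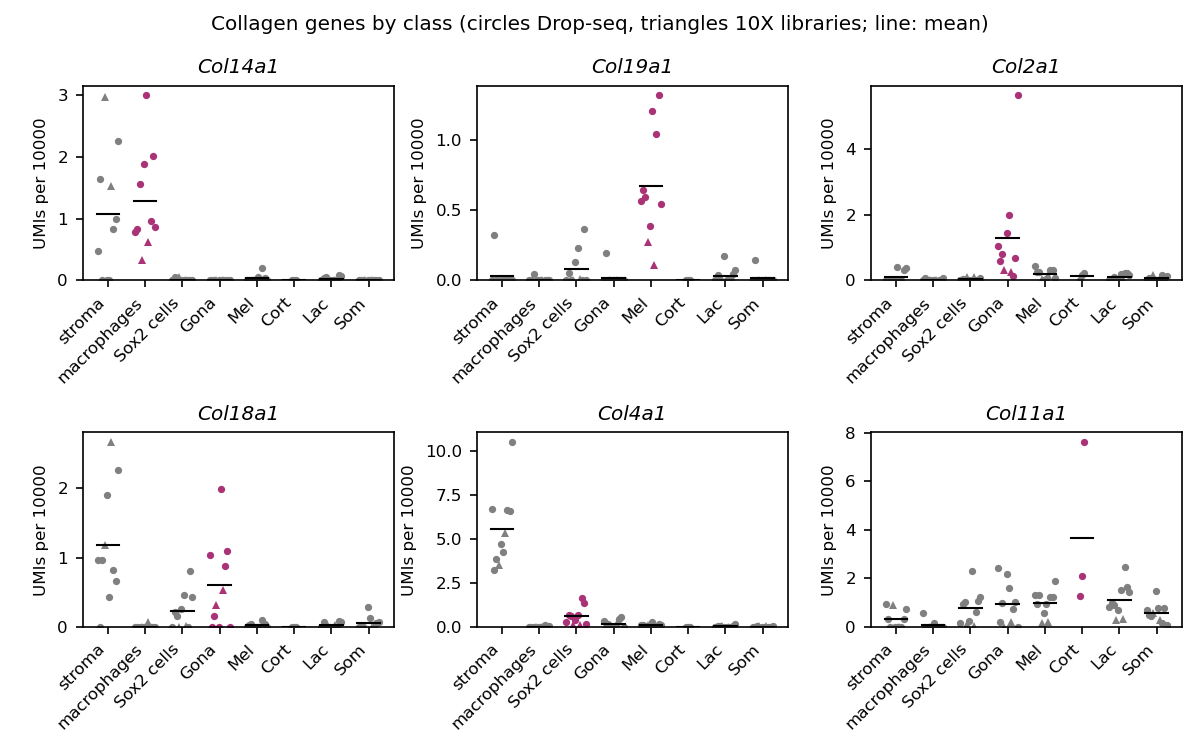
UMIs per 10000 of Col14a1, Col19a1, Col2a1, Col18a1, Col4a1 and Col11a1 by class, 1 point per library (circles Drop-seq, triangles 10X Genomics), with the mean as a line. Col14a1 is high in stroma and macrophages, Col19a1 in melanotropes, Col2a1 in gonadotropes, Col18a1 in stroma and, lower, in gonadotropes, Col4a1 in stroma and, lower, in Sox2 cells, and Col11a1 in corticotropes, where only 3 libraries have a point. Classes with fewer than 10 cells in a library are not drawn for it.

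Col1a2 and Col27a1, a fibrillar collagen known from cartilage, were the members most widely counted outside stroma. Stroma held 4.55% of the 11828 UMIs of Col1a2, Lac 15.9% and the cells without a gate 62.6%. In Lac, Col1a2 lay between 1.71 and 13.8 per 10000 and above the other cells in 10 of 10 libraries (log2 0.56, SE 0.16, adjusted p = 0.0163). Col27a1 was between 0.986 and 5.21 in Lac and above in 9 of 10 (log2 0.70, SE 0.22, adjusted p = 0.0282). The 10X male had the lowest Lac value of both genes. Col24a1 (log2 0.59, adjusted p = 0.0438) and Col11a1 (0.48, adjusted p = 0.0392) were also called, so 4 of 6 tested members were higher in Lac where 7.1% of genes were, and Col4a1 was lower (−2.44, SE 0.41), where 13.1% were. These 4 calls were all fibrillar chains and all small. With a gate of 3 marker UMIs none was called, with a gate of 2 different markers Col11a1 and Col24a1 turned to −0.06 and −0.03, and without the 10X female 1 of the 5 calls was left. On total UMIs all 5 were called, and 1675 genes were higher and 737 lower in place of 605 and 1118. In Som, Col1a2 (−0.11) and Col27a1 (0.31) were not called, and 0 of 4 members passed edgeR's test, where 2.57% of genes were higher and 6.56% lower. None of the 4 had an unadjusted p under 0.05. With no filter 15 of 44 members were lower and none higher in Som, against 10.2% and 0.754% of genes, and in Lac 13 were lower and 1 higher, against 10.7% and 1.8%. Col3a1 (log2 −4.35 in Som and −3.13 in Lac) and Col1a1 (−4.09 and −2.66) were among the lower ones in both. As for each class other than stroma, the cells compared with included stroma, which held 51.84% of Col3a1 and 54.86% of Col1a1 UMIs. Lower calls are therefore not independent of the stroma result.

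Free RNA from lysed cells can put UMIs of an abundant gene into any droplet, and values in classes that should lack the gene are given for that reason. In macrophages Col1a2 had no UMI in 6 of 10 libraries, among them 0 of 181602 UMIs in the 10X female, where its level in Lac was 2.51 per 10000. It was 0.391, 0.870 and 0.921 in macrophages of the mt/hGRF, virgin and first lactating library, and 3.30 in lactating replicate 2. Red blood cells gave 4.60 in lactating replicate 2 and 0 to 1.67 in the other libraries. Lactating replicate 2 was thus the library with the most Col1a2 in cells that should not make it. Col27a1 was between 0.201 and 1.27 in macrophages. Barcodes of low UMI number held 0.681 to 6.53 UMIs of Col1a2 per 10000 in 9 libraries, against 0.498 to 6.84 in kept cells of the same libraries, and may include small or broken cells. Library by library, they lay above the kept cells in some and below in others. Stroma markers in Lac summed to at most 0.527 per 10000, and Col1a1, which stroma carried beside Col1a2, had 9 UMIs in Lac against 1878 of Col1a2. The source of Col1a2 UMIs in Lac was not tested.

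**Figure D4:**
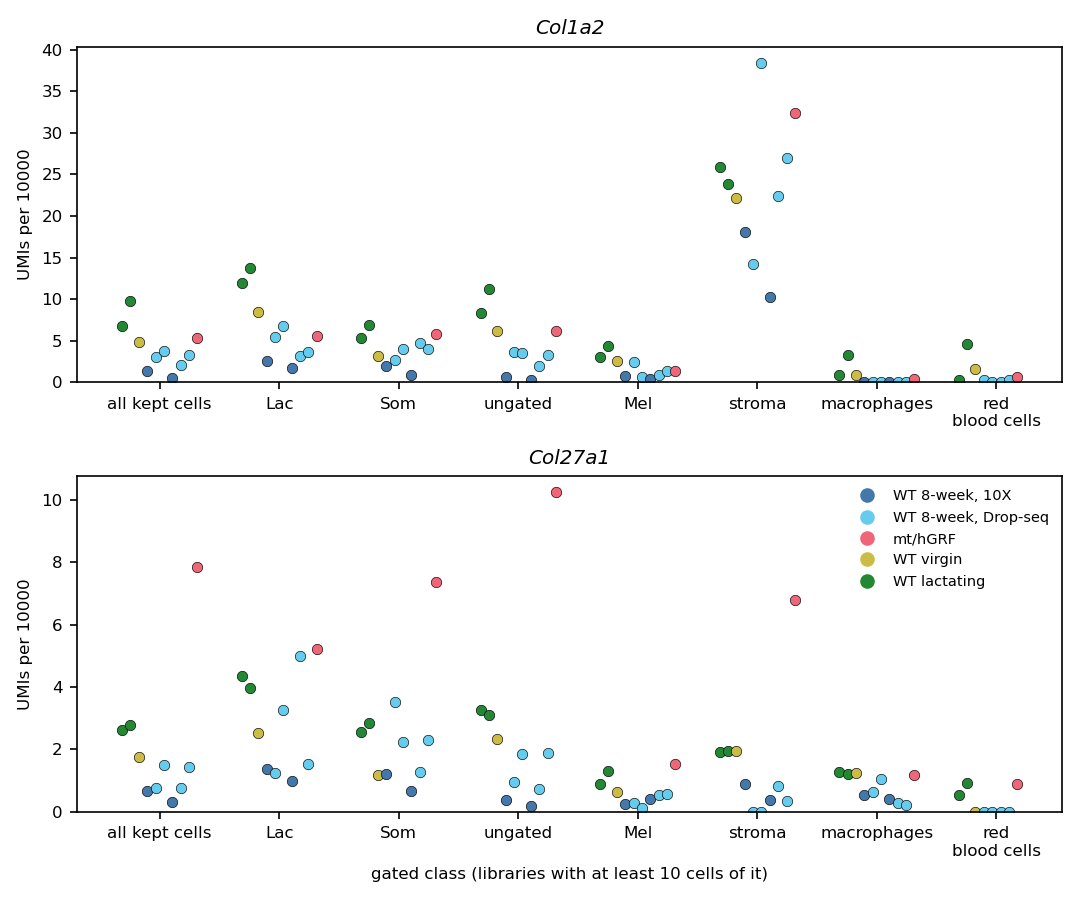
UMIs per 10000 of Col1a2 and Col27a1 in all kept cells and 7 classes, 1 point per library with at least 10 cells, coloured by group. Col1a2 is highest in stroma, and in Lac its 2 lactating values are 11.9 and 13.8, the highest of the 10 libraries. Col27a1 of the mt/hGRF library is the highest point in all kept cells, Lac, Som, cells without a gate, Mel and stroma, but not in macrophages or red blood cells.

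Collagen chains that assemble together were compared by where their UMIs lay. Col4a1 and Col4a2, whose genes lie head to head on chromosome 8 with starts 21 bases apart, had 29.6% and 28.3% of their UMIs in stroma, 11.1% and 6.77% in endothelial cells and 16.6% and 8.52% in Sox2 cells. Over all cells they had 422 and 399 UMIs, 0.945 of Col4a2 for each of Col4a1. Col4a3 and Col4a4, the next head-to-head pair, had 1.06% and 2.57% of their UMIs in stroma, 13.3% and 9.97% in Som and 6.91% and 12.5% in Sox2 cells. Col4a5 and Col4a6 on the X chromosome, with starts 1309 bases apart, had 32.8% and 40.7% in stroma, on 128 and 27 UMIs. Few UMIs of Col4a3 and Col4a4 thus lay in stroma, unlike those of the other type IV chains. The gap between the starts of Col4a3 and Col4a4 is 71 bases, lies in no annotated exon and holds none of the motifs named above, and it is printed as the sequence that separates this pair, read toward Col4a4 on the minus strand of GRCm38.p6 and in lower case throughout.
Col4a3 to Col4a4, chr1:82586850-82586920: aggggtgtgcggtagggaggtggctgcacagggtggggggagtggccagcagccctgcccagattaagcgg
Type I collagen differed from these pairs. Of Col1a1 UMIs 54.9% lay in stroma, against 4.55% of Col1a2, and each UMI of Col1a1 came with 2.65 of Col1a2 in stroma, 8.72 in Gona, 26.0 in Mel and 209 in Lac, with both platforms pooled. Within stroma it was 1.06 by 10X and 3.75 by Drop-seq. The ratio rests on 18 UMIs of Col1a1 in Gona, 25 in Mel and 9 in Lac. Of Col1a1 and Col3a1 together, Gona had 13 UMIs in Drop-seq 8-week female replicate 2 and 0 to 4 in each other library. The shares are of 370 and 11828 UMIs, and the counts are not corrected for how well each transcript was captured.

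**Figure D5:**
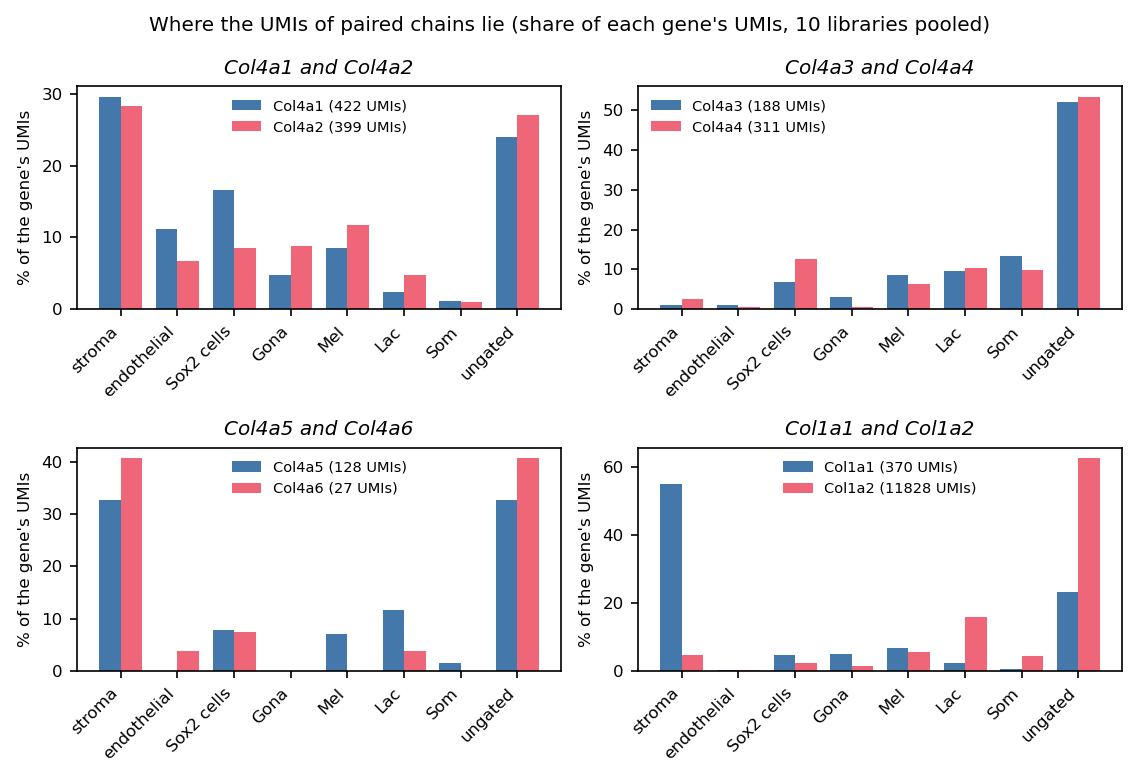
Share of each gene's UMIs by class, in percent, for the chain pairs Col4a1 and Col4a2, Col4a3 and Col4a4, Col4a5 and Col4a6, and Col1a1 and Col1a2. Col4a1 and Col4a2 have 29.6% and 28.3% in stroma and Col4a3 and Col4a4 have 1.06% and 2.57%, while Col1a1 has 54.9% of its UMIs in stroma and Col1a2 has 4.55%.

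Males and females of 8 weeks were compared on 3 libraries each, 1 by 10X and 2 by Drop-seq, with platform as a term. No collagen gene of 25 tested was called in all kept cells by edgeR, where 0.0953% of 11537 genes were, and DESeq2 also called 0. Unadjusted p-values under 0.05 were given to 6 members. Counts of unadjusted p-values in this report stand without the share of all genes, so neither an excess of members nor its absence can be read from them. The 3 smallest belonged to Col16a1, lower in males by 1.21 on the log2 scale (SE 0.43), Col4a3, with a difference of 1.02 (SE 0.37), and Col4a2, with 0.91 (SE 0.35), each with an adjusted p of 1. Col16a1 was at 0.0893 and 0.0177 per 10000 in the 10X female and male, at 0.177 and 0.186 in the Drop-seq females and at 0.0406 and 0.149 in the Drop-seq males, so the male values were lower on both platforms. In Lac the test called 0 of 4 members (0.279% of genes), in Som 0 of 2 (0.408%) and in stroma 0 of 6 (0.571% of 175 genes). Col1a2 in Lac was 2.51 in the 10X female and 1.71 in the male, 5.45 and 6.80 in the Drop-seq females and 3.17 and 3.70 in the males. The female values lay above the male values on each platform, a pattern that 1 or 2 libraries per sex can give without a sex difference. The edgeR test gave a log2 difference of −0.73 (SE 0.33, adjusted p = 0.834). The share of stroma among kept cells was 1.22% ± 0.30 (SD, n = 3) in females and 1.45% ± 0.13 (n = 3) in males (exact permutation test, two-sided, p = 0.3, where 0.1 is the smallest p this design allows). It was higher in the male in 3 of 3 pairs of the same platform and replicate number, with a mean difference of 0.2245 percentage points (exact sign-flip test over pairs, two-sided, p = 0.25, the smallest that 3 pairs allow). The 10X pair differed little, with 27 of 1726 and 28 of 1767 cells, and with cells thinned to 300 UMIs the first Drop-seq pair turned, at 1.534% in the female and 1.423% in the male.

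Lactating (n = 2) and virgin (n = 1) females of 13 weeks were compared with the spread taken from all 8 Drop-seq libraries, the single virgin library being assumed to vary like the others. Again no collagen gene passed. In all kept cells edgeR called 0 of 35 members (0.0142% of 14057 genes), 4 members had an unadjusted p under 0.05, and DESeq2 called 0. Col7a1, the anchoring fibril chain, was at 0.0290 per 10000 in the virgin and at 0.0952 and 0.111 in the lactating libraries (log2 2.09, SE 0.59). Col1a1 was at 0.0181 and at 0.0436 and 0.0544 (1.71, SE 0.65). Macrophages, which held 128 of the 207 UMIs of Col14a1, were 232 of 3665 cells in the virgin and 140 of 2676 and 118 of 5256 in lactation. Col14a1 itself was at 0.145 and at 0.0476 and 0.0524 (−1.24, SE 0.49). All 3 had an adjusted p of 1, and the Col1a1 value of the virgin library rests on 5 UMIs. Col1a2 in all kept cells was 4.88 in the virgin and 6.84 and 9.74 in the lactating libraries (log2 1.05, SE 0.45, adjusted p = 1). In Lac it was 8.44 in the virgin and 11.9 and 13.8 in lactation, and it was seen in 39.5% of the virgin's Lac cells and in 60.2% and 60.7% of those in lactation. With cells thinned to 300 UMIs the shares were 20.5%, 33.1% and 34.5%. The log2 difference in Lac was 0.83 (SE 0.50, adjusted p = 1), and red blood cells of lactating replicate 2, at 4.60, were also high. The test called 0 of 6 members in Lac (0.0156% of genes), 0 of 4 in Som (0.0282%) and 0 of 11 in stroma (0% of 568 genes). In these 3 classes no member had an unadjusted p under 0.05, and DESeq2 called none.

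The mt/hGRF library (n = 1) was compared with the WT 8-week Drop-seq females (n = 2) in the same fit, so its own spread is assumed and not measured. Col27a1 was the member that stood out. It was at 7.87 UMIs per 10000 in all kept cells of mt/hGRF, at 0.760 and 1.497 in the WT females, and at no more than 2.77 in any other library. The log2 difference was 2.91 (SE 0.43, adjusted p = 0.0754), and so it missed the threshold, as all 35 members did, where 0.0285% of 14057 genes were called and 10 members had an unadjusted p under 0.05. DESeq2 gave 2.91 (adjusted p = 1.61e-06), a fit with no filter 2.96 (adjusted p = 4.03e-08) and a fit of the 2 groups alone 2.90 (adjusted p = 0.0155), and total UMIs 2.72 (adjusted p = 0.199). The mt/hGRF value was above both WT values in each class given next. It was 7.36 in Som against 3.52 and 2.22 (log2 1.73, SE 0.51, adjusted p = 0.0533), 5.21 in Lac against 1.23 and 3.27 (1.30, adjusted p = 0.367), 10.2 in cells without a gate against 0.937 and 1.85, and 6.78 in stroma against 0 and 0 (adjusted p = 0.224). Of mt/hGRF cells 33.5% had a Col27a1 UMI, and 20.1% after thinning, against 2.35% and 5.26% in the thinned WT cells. In that library it was 1.53 in Mel, 1.17 in macrophages, 1.13 in Gona (1 UMI) and 0.878 in red blood cells, all below Som and Lac, and Cort had no Col27a1 UMI. Its barcodes of low UMI number had 9.07 per 10000, against 0.125 and 0.710 in the WT females. In that library the limit on mitochondrial UMIs removed 1769 of 5000 barcodes, more than in any other, and without the limit the level was 10.5 per 10000. The part of cell damage in this result was not tested.

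The other members with the smallest p in the mt/hGRF comparison were Col19a1, at 0.0378 per 10000 against 0.156 and 0.255 in the WT females (log2 −2.34, SE 0.57, adjusted p = 0.319), and Col4a4, at 0.0336 against 0.167 and 0.261 (−2.57, SE 0.70, adjusted p = 0.456). Melanotropes, which held 192 of the 258 UMIs of Col19a1, were 102 of 2797 cells in mt/hGRF and 70 of 978 and 152 of 1482 in the WT females. Col1a2 was 5.38 in mt/hGRF against 3.10 and 3.73. In Lac 0 of 6 members passed (0.343% of genes), in Som 0 of 4 (1.07%) and in stroma 0 of 11 (0%), by edgeR and by DESeq2, while 1, 3 and 1 had an unadjusted p under 0.05. No gene of the collagen making, basement membrane partner, receptor and turnover lists was called for sex, lactation or mt/hGRF in any class fitted.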

How the data were processed

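The authors deposited raw counts, 1 table of UMI counts per gene and barcode for each library, without normalization. Per the authors, Drop-seq reads were mapped to mm10 (GENCODE vM13), exonic, strand-matched and uniquely mapped reads were kept and UMIs within 1 edit were merged; Cell Ranger made the 10X Genomics tables, its version not given in the sources used here. STAR 2.5.2a is named in the submitters' processing notes. The tables name genes by symbol. Coordinates come from GENCODE vM21 on GRCm38.

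Cells were kept by the study's limits (Drop-seq, 300 UMIs and 100 to 4000 genes; 10X Genomics, 200 to 3000 genes; mitochondrial share under 0.1). After clustering its Drop-seq cells, the study also removed clusters it took for red blood cells, NK cells, low-quality cells and doublets. No such removal was made here. Kept cells numbered 978 to 5256 per library, with 960289 to 5080590 UMIs and a median of 534 to 1246 per cell. Libraries shared 0 to 6 barcodes. No doublet caller was run. A class took cells with at least 2 UMIs of its markers and more than of any other class, and red blood cells those with 10% haemoglobin UMIs. Members, gates and lists were chosen with earlier results of these data known.

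UMIs were summed per library and class (at least 10 cells) and tested with edgeR 4.0.16 (R 4.3.3), quasi-likelihood, TMM, filterByExpr, two-sided, Benjamini-Hochberg over all genes tested, at 0.05. DESeq2 1.42.0 was an alternative. Standard errors are the log2 difference divided by the root of F. The fit was tested on simulated data. There TMM moved the fold changes of small sums downward and total UMIs did not, so fits without TMM factors were added after the data were seen. A minimum of 5 cells was added for pituicytes and endothelial cells, too few for the planned 10, and the counts of the lists by role with no filter were added as well. Intervals are exact. For sex, deviations from the sex means were correlated across genes between same-numbered libraries. In all kept cells r was 0.879, 0.554 and 0.702 (10X first), in Lac 0.718, 0.169 and 0.482, and in Som 0.759, 0.286 and 0.497. Those means pool both platforms, so r holds the platform difference and cannot show pairing within Drop-seq. Named are members past the threshold, at most 8 in each direction, and with none, for sex, lactation and mt/hGRF, the 3 with the smallest p. Members named from fits with no filter, or for their level, were chosen after their values were seen.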

Additional observations from a re-analysis of the deposited data

Results flagged for a closer look

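Col4a2 differed between males and females in opposite directions on the 2 platforms, which flagged it among 11 sex contrasts of members compared between platforms. Male minus female, the value over all kept cells was −0.022 UMIs per 10000 with 10X Genomics and 0.212 with Drop-seq. In stroma it was −0.707 with 10X Genomics (female 6.82, male 6.11) and 4.36 with Drop-seq (0.951 and 3.41 in the females, 5.61 and 7.47 in the males). The difference between the platforms was not tested. Each sex has 1 library by 10X Genomics, and the stroma values there rest on 39 UMIs of Col4a2 over both sexes.

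Barcodes of at most 100 UMIs, which enter none of the comparisons, held collagen UMIs in both 10X Genomics libraries, namely 2.501 per 10000 (female) and 1.97 (male). Kept cells held 4.03 and 2.14. Of the collagen UMIs in these barcodes 38.4% and 34.6% were Col1a2. No group had 4 or more libraries, the largest having 2, so no single library was tested against its group.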

How the results depend on the processing

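Counts of called members, given as the sum of higher and lower, moved by over 1.5 times in these cases. With no filter on low counts, which tests all members, the counts were 27 in stroma, 28 in macrophages, 15 in Sox2 cells, 14 in Gona, 19 in Mel, 14 in Lac, 15 in Som and 2 for mt/hGRF in all kept cells. In the 6 cell classes other than stroma most of these calls were lower, in comparisons whose other cells include stroma. The report gives both directions beside the shares of all genes. The lists by role, counted the same way with no filter in place of the filter, went from 4 to 8 (collagen making), 4 to 8 (basement membrane partners) and 0 to 3 (receptors) in stroma, from 7 to 13, 0 to 6 and 1 to 4 in macrophages, where turnover went from 3 to 6, and for the partners from 3 to 8 and the receptors from 2 to 1 in Sox2 cells. With no library block the called members were 1 in Sox2 cells, 2 in Mel and 1 in Lac. A gate of 2 different markers gave 6 in Gona, 1 in Lac and 1 in Som, and a gate of 3 marker UMIs gave 3 in Mel and 0 in Lac. Drop-seq libraries alone gave 8 in Mel and 2 in Lac. DESeq2 gave 3 in Lac, 1 within stroma and 1 for mt/hGRF in all kept cells. At least 20 cells per library gave 14 in stroma, where more genes were tested. A fit of the 2 groups alone gave 1 for mt/hGRF in all kept cells and 1 in Som. Total UMIs gave 1 in endothelial cells. Thinned to 300 UMIs, stroma cells with a collagen UMI were 73.95%. Unless named here or below, the cause was not tested.

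Leaving out 1 library at a time gave 8 to 11 calls in stroma, 3 to 4 in macrophages, 3 to 6 in Sox2 cells and 2 to 3 in Gona. It gave 4 to 7 in Mel, 2 to 3 in Cort, 1 to 5 in Lac and 0 to 0 in Som and for sex. Within stroma it gave 0 to 1 (1 without Drop-seq 8-week female replicate 2). For lactation and mt/hGRF the single virgin or mt/hGRF library cannot be left out. The 2 refits possible for each leave 1 library per group, so their counts are not given. The Lac count was 1 without the 10X female, 2 without mt/hGRF, 3 without Drop-seq 8-week female replicate 2 and 3 without Drop-seq 8-week male replicate 1. The stroma level was 84.69 ± 18.62 (SD, n = 10) UMIs per 10000 and 81.45 to 87.11 with 1 library left out. Its total counts only genes listed on both platforms, unlike the levels per 10000 given above. The sex difference in the share of stroma was 0.125 to 0.396 percentage points.

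Values that turned were Col11a1 (−0.05542) and Col24a1 (−0.03124) in Lac with a gate of 2 different markers, Col1a2 by sex in Som with Drop-seq alone (0.4248), without the 10X female (0.4356) and without the 10X male (0.4249), the range with 1 library left out being −0.3349 to 0.4356, and Col1a1 by sex in stroma without Drop-seq 8-week female replicate 2 (0.1887, range −0.5492 to 0.1887). None of these was called. The Col27a1 call in stroma was also lost with DESeq2, with no library block, with at least 20 cells per library and without either lactating library or Drop-seq 8-week female or male replicate 2 (adjusted p 0.0515 to 0.265). Among single members, 800 of 871 values kept direction and side of the threshold. The replicate block by batch, used for sex, called 0 members in all kept cells, Lac, Som and stroma, as the fit without it did. Over the same pairs the sex difference in the share of stroma was 0.2245 percentage points (exact sign-flip test, p = 0.25), a test added after the data were seen. Depth limits the rare members most, since 3 of 44 had under 20 UMIs.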

Other observations

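Cells without a gate held 291 UMIs of Col1a1 and Col3a1, in 176 cells with 1, 27 with 2 and 16 with 3 or more, and 7 of the 16 also had a stroma marker UMI. The source of these UMIs was not tested. Of the 291 UMIs 64, 78 and 47 came from Drop-seq 8-week male replicate 1, female replicate 2 and male replicate 2, against 4 to 25 in each other library. Red blood cells had 7, 5 and 1 UMIs of Col6a3 in Drop-seq 8-week female replicate 1, male replicate 1 and female replicate 2, and none in the other 5 libraries with at least 10 such cells.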
